A study of Bos taurus with 6 samples.

Results

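Negative feedback on MAP kinase signalling was examined in bovine cumulus cells through 10 genes: the dual-specificity phosphatases DUSP1, DUSP2, DUSP4, DUSP5 and DUSP6, the Sprouty genes SPRY1, SPRY2 and SPRY4, and the Sprouty-related genes SPRED1 and SPRED2. The members were all array probes whose gene symbol in the platform annotation was one of these names, which gave 13 of 43794 probes and 10 of 15216 gene symbols. Of these, 7 probes of 6 genes were bright enough to be tested, among 9180 tested genes in all.

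Cumulus cells are the somatic cells that surround the oocyte in the cumulus-oocyte complex. The complexes were aspirated from the ovaries of slaughtered Holstein cows, and cumulus cells were compared between complexes taken before maturation (0 h, the reference) and complexes after 6 h of in vitro maturation. Mechanical separation is named for the 0 h cells, while the method used for the 6 h cells is not stated. Both groups were unmodified cells of the same breed. The 6 h complexes, with several cumulus layers, had been washed and cultured in small groups in TCM-199 with fetal calf serum, estradiol, pyruvate and gentamicin, and no gonadotropin is named for that medium. There were 3 biological replicates, each hybridised on a pair of arrays with the dyes exchanged, for 6 two-colour arrays. The labels do not state how many animals or complexes went into a replicate. Each p-value thus rests on only 3 replicates, and the spread among single animals is not known. The p-values from limma also draw on the spread of the other tested genes. So do the confidence intervals given for single members, which use limma's standard error. They are therefore not the intervals that the printed SD and n alone would give. RNA had been amplified linearly before labelling.

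As background, MAP kinases relay signals from growth factor receptors through RAS, RAF and MEK to ERK, and stress signals to JNK and p38. The dual-specificity phosphatases remove the activating phosphates from these kinases, while Sprouty and SPRED proteins act further up, between the receptor and RAF. Many of these inhibitors are themselves transcribed in response to the pathway they inhibit, and form a negative feedback loop. In mice, EGF-like ligands act on cumulus cells after the luteinizing hormone surge, and ERK activity in these cells is needed for cumulus expansion and for resumption of meiosis. The roles given below for single genes are known from human and mouse cells.

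All values are log2 ratios of 6 h over 0 h after loess normalization, with dye swaps averaged, so that n = 3. A gene was called where limma's adjusted p over all tested genes was under 0.05. Over all tested genes, 35.2% were called, 18.0% lower and 17.2% higher at 6 h. Among the members, 6 of 6 tested genes were called, 3 lower and 3 higher, and their median ratio was -0.19 against -0.02 for all tested genes. The members were chosen with earlier results of these data known, so their called share is a description and no test. DUSP1, DUSP6 and SPRY1 fell, and SPRY2, SPRED1 and SPRED2 rose. The chosen probe of each of these 6 genes was above background on 6 of 6 arrays at both times, so none was tested through 1 time point alone. Each had the same sign on 6 of 6 arrays, and none was saturated or marked as ignored on any array. RNA was measured in bulk, so fewer cells of a type and less RNA per cell cannot be told apart.

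**Figure D1:**
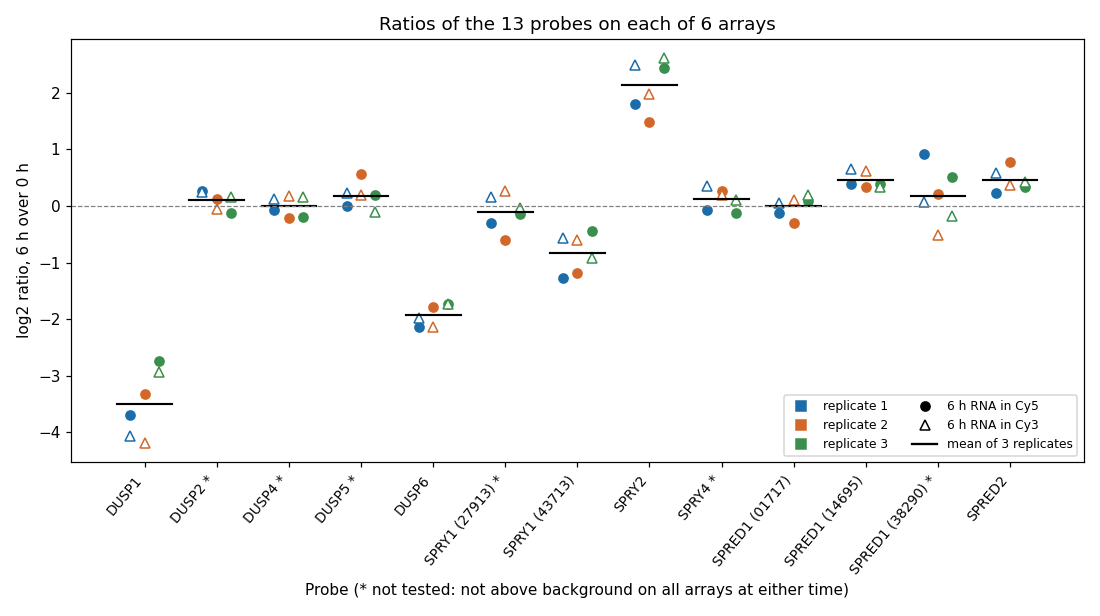
Log2 ratio of 6 h over 0 h (vertical axis) for each of the 13 probes on each of the 6 arrays. Colours mark replicates, circles arrays with 6 h RNA in Cy5, triangles arrays with 6 h RNA in Cy3, and bars the mean of 3 replicates; an asterisk marks probes that were not tested. The points of DUSP1, DUSP6 and the brighter SPRY1 probe lie below 0, those of SPRY2, SPRED2 and the brightest SPRED1 probe lie above 0, and each of the other 7 probes has points on both sides of 0.

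DUSP1 encodes a nuclear phosphatase that acts on p38, JNK and ERK and is known as an immediate early gene. On the arrays with 6 h RNA in Cy3, its log2 ratio (probe EMBV3_31090) was -4.06, -4.19 and -2.94 in replicates 1, 2 and 3. On the arrays with 6 h RNA in Cy5, it was -3.69, -3.33 and -2.74. The replicate ratios were -3.87, -3.76 and -2.84, with replicate 3 the least negative under both dye orientations. DUSP1 fell 11.2-fold, with a mean log2 ratio of -3.49 ± 0.57 (SD, n = 3, limma adjusted p = 0.00131) and a 95% confidence interval of -4.05 to -2.93. It ranked as the 3rd lowest of 9180 tested genes.

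The level of DUSP1 at 0 h, as log2 intensity scaled between arrays, was 13.41, 13.75 and 12.39 in replicates 1, 2 and 3. At 6 h it was 9.53, 9.99 and 9.55. The time points did not overlap, and the replicates spread more at 0 h (SD 0.71) than at 6 h (SD 0.26). Its raw intensity ranged from 5836 to 16758 at 0 h and from 634 to 1145 at 6 h. The fold decrease was 14.6 in replicate 1, 13.5 in replicate 2 and 7.15 in replicate 3. The SD of its 3 ratios exceeded that of 94.2% of tested genes.

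DUSP6 encodes a cytoplasmic phosphatase that is selective for ERK, and its transcript is often used as a readout of ERK activity. Its replicate log2 ratios (probe EMBV3_03049) were -2.06, -1.96 and -1.73, and single arrays ran from -2.14 to -1.73. The 6 arrays thus lay close together, and no array approached 0. DUSP6 fell 3.78-fold, at -1.92 ± 0.17 (SD, n = 3, limma adjusted p = 0.0011) with a 95% confidence interval of -2.21 to -1.63. Levels in replicates 1, 2 and 3 were 10.62, 10.94 and 10.53 on the log2 scale at 0 h and 8.56, 8.98 and 8.80 at 6 h. The groups did not overlap, and the SD was 0.22 at 0 h and 0.21 at 6 h. DUSP6 had the 70th lowest ratio among tested genes.

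Both phosphatases were thus lower at 6 h in 3 of 3 replicates, DUSP1 by more than DUSP6. Within replicates, the log2 ratio of DUSP6 exceeded that of DUSP1 by 1.81, 1.80 and 1.11, with a mean difference of 1.57 ± 0.40 (SD, n = 3). An exact two-sided sign-flip test gave p = 0.25, or 0.375 after Benjamini-Hochberg adjustment over 3 pairs. With 3 replicates this test cannot go below 0.25, and the 3 pairs of members compared were chosen after their values were seen.

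The other phosphatases gave no tested value, because their probes were not above background on all 6 arrays at either time. DUSP5, a nuclear phosphatase specific for ERK, came closest, with its probe EMBV3_04325 above background on 5 of 6 arrays for each time point. Its replicate ratios were 0.12, 0.38 and 0.04. DUSP2, a nuclear phosphatase best known from lymphocytes, passed the background threshold on 3 of the 0 h and 2 of the 6 h samples (probe EMBV3_30830), with ratios of 0.25, 0.04 and 0.02. DUSP4, a nuclear relative of DUSP1, passed it on 2 of the 0 h samples and 1 of the 6 h samples (probe EMBV3_38141), with ratios of 0.02, -0.02 and -0.01. Its near-zero mean of -0.00 ± 0.02 averaged opposite dye orientations, which gave -0.16 with 6 h RNA in Cy5 and 0.15 with it in Cy3. Signals this close to background bound neither a rise nor a fall of these 3 genes.

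**Figure D2:**
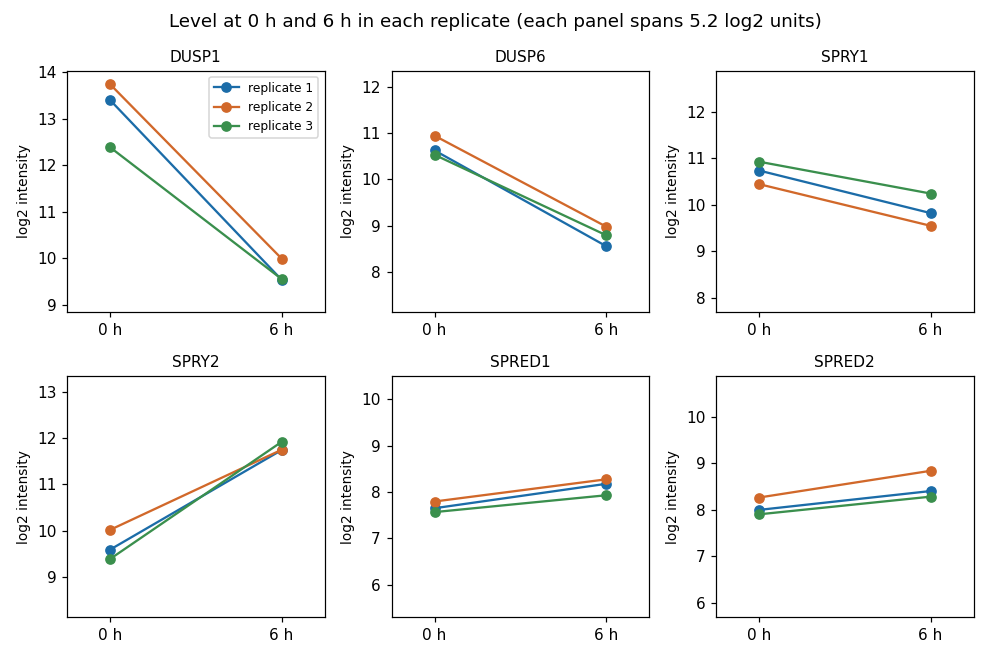
Level of each called member at 0 h and 6 h, as log2 intensity (vertical axis) with 1 line for each of 3 replicates; all panels span the same number of log2 units, and intensities of different probes are not comparable. Lines fall in DUSP1, DUSP6 and SPRY1 and rise in SPRY2, SPRED1 and SPRED2 in each of 3 replicates. The time points come closest in SPRED2, at 8.26 and 8.28.

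Among the Sprouty genes, SPRY1 and SPRY2 moved in opposite directions. Sprouty proteins are membrane-associated adaptors that dampen signalling from growth factor receptors to ERK, and SPRY1 is known for restraining FGF and GDNF signalling in development. The replicate log2 ratios of SPRY1 (probe EMBV3_43713) were -0.92, -0.90 and -0.69. SPRY1 fell 1.78-fold, at -0.83 ± 0.13 (SD, n = 3, limma adjusted p = 0.00483, 95% confidence interval -1.11 to -0.56). Single arrays ranged from -1.27 to -0.45, and the arrays of a dye swap differed by 0.71, 0.58 and 0.48 in replicates 1, 2 and 3, so the dyes disagreed by more than the replicates did. Levels at 0 h were 10.74, 10.45 and 10.93, and levels at 6 h were 9.82, 9.55 and 10.24, with no overlap. A dimmer SPRY1 probe (EMBV3_27913), above background on 4 arrays at each time and not tested, gave -0.11 ± 0.05.

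SPRY2, which also binds the ubiquitin ligase CBL and thereby affects how long receptors stay at the surface, was the member with the highest ratio. Its array ratios (probe EMBV3_02366) with 6 h RNA in Cy3 were 2.49, 1.97 and 2.61 in replicates 1, 2 and 3, and with 6 h RNA in Cy5 they were 1.80, 1.48 and 2.44. The replicate ratios were 2.15, 1.73 and 2.52. The lowest array was thus still well above 0. SPRY2 rose 4.38-fold, at 2.13 ± 0.40 (SD, n = 3, limma adjusted p = 0.00185, 95% confidence interval 1.70 to 2.57), the 113th highest of all tested genes.

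Levels of SPRY2 at 0 h were 9.59, 10.02 and 9.39 in replicates 1, 2 and 3. At 6 h they were 11.74, 11.75 and 11.92. The replicates lay close together at 6 h (SD 0.10) and farther apart at 0 h (SD 0.32), and the time points did not overlap. Raw intensity ran from 499.7 to 1242 at 0 h and from 3037 to 4244 at 6 h. SPRY2 exceeded SPRY1 by 3.06, 2.62 and 3.21 within replicates, with a mean difference of 2.97 ± 0.31 (exact two-sided sign-flip p = 0.25, the smallest possible, adjusted p = 0.375 over 3 pairs). SPRY4, which is also induced by ERK signalling in many cell types, was above background on 1 of 6 arrays at each time (probe EMBV3_37145) and was not tested. Its replicate ratios were 0.14, 0.23 and -0.02.

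SPRED1 and SPRED2 rose by small amounts. SPRED proteins carry a Sprouty domain, and SPRED1 is known to bring neurofibromin, which switches RAS off, to the membrane. The replicate log2 ratios of SPRED1 (probe EMBV3_14695) were 0.53, 0.48 and 0.36. It rose 1.37-fold, at 0.46 ± 0.08 (SD, n = 3, limma adjusted p = 0.0233, 95% confidence interval 0.19 to 0.72). Levels were 7.65, 7.79 and 7.57 at 0 h and 8.17, 8.27 and 7.93 at 6 h, without overlap. The smallest gap between the groups was narrow, from 7.79 to 7.93. Its spots were dim, with raw intensity of 202.5 to 332.8 at 0 h and 261.7 to 410.1 at 6 h. Background thresholds were 135.9 to 235.8 over arrays and dyes. Before normalization, the 6 h signal was the lower on arrays with 6 h RNA in Cy5 and the higher with it in Cy3.

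The other SPRED1 probes gave smaller ratios. A dimmer tested probe (EMBV3_01717), above background on 6 arrays before maturation and on 4 after it, had ratios of -0.04, -0.10 and 0.14 and a mean of 0.00 ± 0.12 (limma adjusted p over all tested probes = 0.995). An untested probe (EMBV3_38290) gave 0.17 ± 0.32, with its dye orientations at 0.55 and -0.21. With the mean of both tested probes as the gene value, SPRED1 had 0.23 and was no longer called (limma adjusted p = 0.116). The call was also lost without replicate 2 (0.44, limma adjusted p = 0.129) and without replicate 3 (0.50, adjusted p = 0.076). Over all tested genes, calls fell from 3235 to 1679 without replicate 2 and to 2005 without replicate 3.

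SPRED2, a close relative of SPRED1 that likewise restrains RAS signalling, was measured by a single probe (EMBV3_19338). Its replicate ratios were 0.41, 0.58 and 0.38. It rose 1.37-fold, at 0.45 ± 0.11 (SD, n = 3, limma adjusted p = 0.0252, 95% confidence interval 0.19 to 0.72). Levels were 7.995, 8.26 and 7.90 at 0 h and 8.40, 8.84 and 8.28 at 6 h. These groups nearly touched, at 8.26 and 8.28. Raw intensity of this probe was also low, at 230.2 to 384.4 at 0 h and 317.9 to 511.9 at 6 h. The call was lost without replicate 2 (0.39, limma adjusted p = 0.159) and without replicate 3 (0.49, adjusted p = 0.0848). Calls over all tested genes also fell, from 3235 to 1679 and 2005. SPRED1 and SPRED2 differed within replicates by 0.12, -0.10 and -0.02, with a 95% confidence interval of the mean difference from -0.27 to 0.27 (exact two-sided sign-flip p = 1, n = 3). Unlike the intervals of single members, this interval was computed from the SD of these differences alone, without limma.

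**Figure D3:**
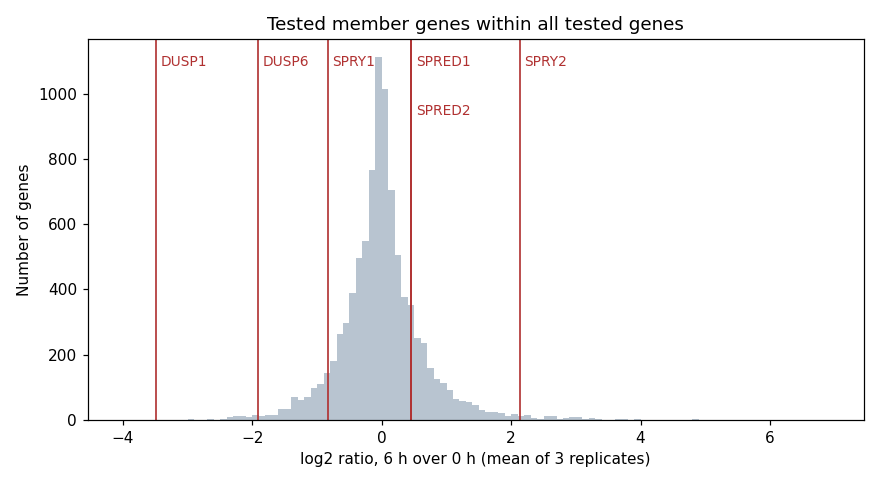
Histogram of the mean log2 ratio of 6 h over 0 h (horizontal axis) of 9180 tested genes, with the number of genes per bin on the vertical axis and a line at each tested member. DUSP1 at -3.49 and DUSP6 at -1.92 lie in the lower tail, SPRY2 at 2.13 lies in the upper tail, and SPRED1 and SPRED2 lie on the shoulder near 0.46.

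The called members differed widely in the size of their change. DUSP1, DUSP6 and SPRY2 changed by more than 3-fold, SPRY1 by 1.78-fold, and both SPRED genes by 1.37-fold. DUSP1, DUSP6, SPRY1 and SPRY2 were called under each of 18 other processing settings, and their log2 ratios over these settings ranged from -3.81 to -3.25, -2.01 to -1.79, -0.97 to -0.70 and 1.91 to 2.36. SPRED1 lost its call under 4 of the 18 and SPRED2 under 3.

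The genes whose 3 replicate ratios lay nearest to those of the members at each extreme were then listed, with the mean absolute difference over replicates as the measure. Nearest to DUSP1 was FOSB, an immediate early subunit of the transcription factor AP-1, with ratios of -3.98, -3.78 and -2.86 and a mean absolute difference of 0.05. HERPUD1, a component of protein degradation at the endoplasmic reticulum, followed at a distance of 0.30, with a mean ratio of -3.19. SLC2A3, a glucose transporter, had a distance of 0.43 and a mean ratio of -3.05. In FOSB, HERPUD1 and SLC2A3, as in DUSP1, replicate 3 was the least negative, which follows largely from choosing genes by these ratios.

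Nearest to SPRY2 was TNFRSF21, a receptor of the tumour necrosis factor receptor family, with ratios of 2.26, 1.77 and 2.24 and a mean absolute difference of 0.14. SERPINB8, a serine protease inhibitor, had ratios of 2.19, 2.17 and 2.46 and a distance of 0.18. PCOLCE2, which enhances the processing of procollagen, had 2.19, 2.04 and 2.34, also at 0.18. Replicate 2 was the lowest of the 3 in all of these genes and in SPRY2. These lists rest on 3 replicates and describe likeness only. The genes were chosen by the same replicate ratios, so the shared order of replicates is no separate result.

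**Figure D4:**
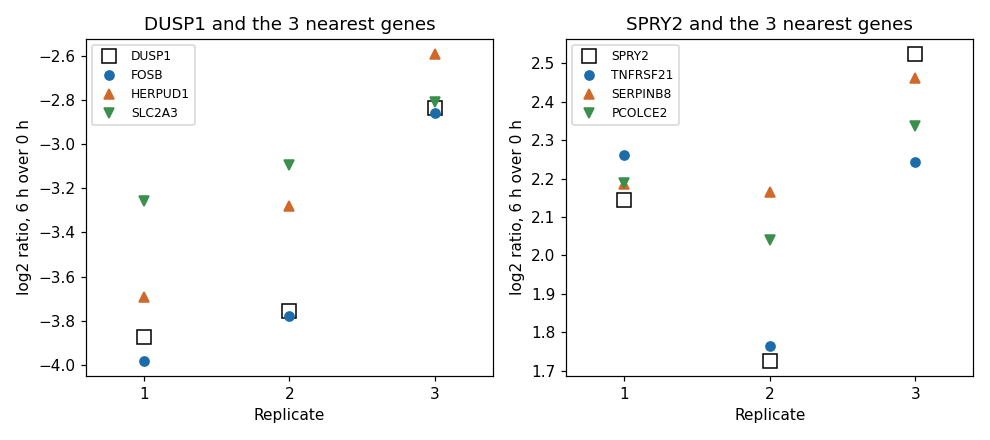
Log2 ratio of 6 h over 0 h (vertical axis) by replicate for DUSP1 and SPRY2 (squares) and the 3 genes nearest to each. FOSB lies on or next to DUSP1 in each replicate, and both vertical axes are cropped to the range of the values.

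The wider family and the pathway around the members were read from lists, whose members are given by counts and up to 4 genes with the smallest p. These lists too were chosen with earlier results of these data known, so their called shares do not test for enrichment. Of 18 other DUSP, SPRY and SPRED genes, 14 had a probe and 5 were tested, of which 1 rose, 1 fell and 3 were not called. The list's called share was thus 40% against 35.2% of all tested genes, and its median -0.05. DUSP19, an atypical phosphatase linked to JNK, fell by 1.30 ± 0.20 on the log2 scale (limma adjusted p = 0.00231), while its other probes, at -0.26 and -0.27, moved less. DUSP11, which acts on RNA rather than on kinases, rose by 0.82 ± 0.19 (limma adjusted p = 0.00661). DUSP10, which acts on JNK and p38, had -0.53 ± 0.77 (limma adjusted p = 0.224), with replicates at 0.12, -0.32 and -1.38. DUSP12 had 0.07 ± 0.12 (limma adjusted p = 0.685).

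Of the 24 genes listed for the cascade from RAS to ERK, 17 were tested, of which 3 rose, 3 fell and 11 were not called. This share of 35.3% lay at the background of 35.2%. MAP2K1, the kinase MEK1 directly above ERK, rose 2.71-fold, at 1.44 ± 0.21 (SD, n = 3, limma adjusted p = 0.00212), with ratios of 1.51, 1.61 and 1.20. Its increase was seen in every replicate and exceeded their spread. GRB2, the adaptor that brings SOS to receptors, rose by 0.73 ± 0.16 (limma adjusted p = 0.00827). SOS2, an exchange factor that activates RAS, fell by 0.56 ± 0.16 (limma adjusted p = 0.0167), a call lost without replicate 2 (adjusted p = 0.0699) or replicate 3 (adjusted p = 0.0571). GAB1, a docking protein of receptor complexes, fell by 0.99 ± 0.54 (limma adjusted p = 0.0211), and a second bright probe gave -0.79. Without replicate 2 or without replicate 3, 3 genes of this list were called in place of 6. Calls over all tested genes fell as well, from 3235 to 1679 and 2005.

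Of 17 genes of the JNK and p38 cascades, on which DUSP1 acts, 12 were tested, with 2 higher, 3 lower and 7 not called (41.7%, median 0.02). MAP3K5, the stress-activated kinase ASK1 at the top of both cascades, fell 4.33-fold, at -2.11 ± 0.23 (SD, n = 3, limma adjusted p = 0.0011). MAP2K3, which activates p38, rose by 1.21 ± 0.17 (limma adjusted p = 0.0025). MAPK9, one of the JNK genes, fell by 0.89 ± 0.29 (limma adjusted p = 0.00889), and MAP3K4 rose by 0.73 ± 0.30 (limma adjusted p = 0.0158), a call lost without replicate 2 (adjusted p = 0.0605). Without replicate 2, 3 genes of the list were called in place of 5, while calls over all tested genes fell from 3235 to 1679.

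Transcripts that are used elsewhere as readouts of ERK output were divided, as DUSP6 and SPRY2 were. Of 12 listed, 8 were tested, with 3 higher, 3 lower and 2 not called, a called share of 75% against 35.2% of all tested genes and a median of 0.18. The list was chosen with earlier results known, so this share is no test of the list. FOSL1, an AP-1 subunit that is stabilised and induced by ERK, rose 5.69-fold, at 2.51 ± 0.41 (SD, n = 3, limma adjusted p = 0.00148). FOS, an immediate early AP-1 subunit, had ratios of -4.07, -3.16 and -1.66 and fell by 2.96 ± 1.22 (limma adjusted p = 0.007). Its replicates thus differed widely, its probe was saturated on 1 array, and without replicate 3 its ratio was -3.61. A dimmer FOS probe gave -0.93.

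The transcription factor MYC had ratios of -2.52, -3.44 and -1.22 and fell by 2.39 ± 1.12 (limma adjusted p = 0.0101). Its ratio was -2.98 without replicate 3. EPHA2, an ephrin receptor, rose by 0.53 ± 0.11 (limma adjusted p = 0.0166), a call lost without replicate 2 (adjusted p = 0.0698) or replicate 3 (adjusted p = 0.0721). Without replicate 2, 3 genes of this list were called in place of 6, while calls over all tested genes fell from 3235 to 1679. In FOS and MYC, as in DUSP1, the ratio of replicate 3 was the least negative.

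**Figure D5:**
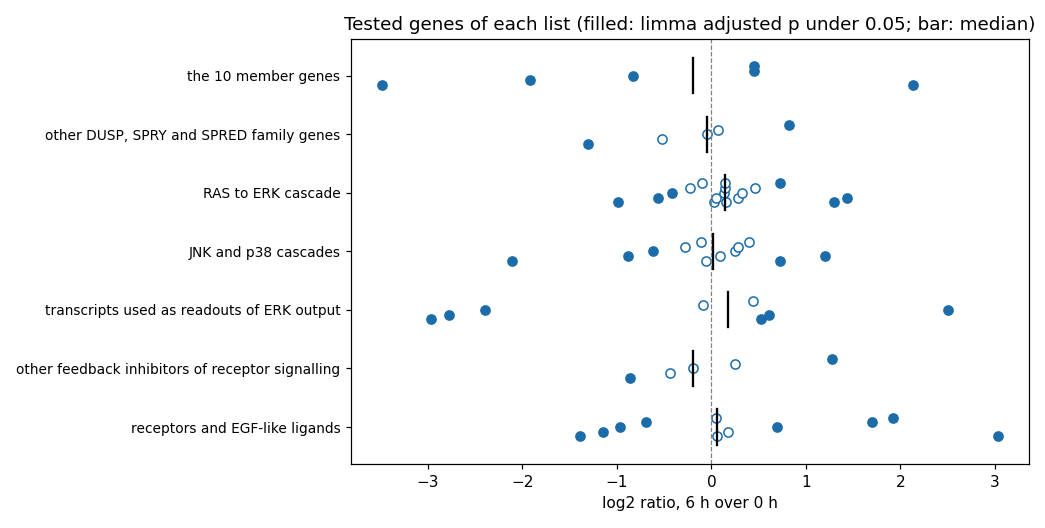
Mean log2 ratio of 6 h over 0 h (horizontal axis) of the tested genes of each list, with filled points for genes with limma adjusted p under 0.05 and a bar at each list's median. Called genes lie on both sides of 0 in every list shown, and the list medians stay between -0.20 and 0.18.

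Of 11 other feedback inhibitors of receptor signalling, 5 were tested, with 1 higher, 1 lower and 3 not called (40%, median -0.20). LRIG1, which promotes the breakdown of EGF receptors, fell by 0.86 ± 0.09 (SD, n = 3, limma adjusted p = 0.004). PEA15, which holds ERK in the cytoplasm, rose by 1.27 ± 0.40 (limma adjusted p = 0.00541), and its other probe gave 1.28. ERRFI1, which binds and inhibits the EGF receptor, had -0.44 ± 0.30 (limma adjusted p = 0.0676), and SOCS5 had -0.20 ± 0.35 (limma adjusted p = 0.394). LRIG1 thus moved in the direction of DUSP6 and SPRY1, and PEA15 in that of SPRY2.

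Of 21 genes for receptors, EGF-like ligands and FGF2, 11 were tested, with 4 higher, 4 lower and 3 not called. The called share was 72.7% against 35.2%, and the median 0.06. This list was likewise chosen with earlier results known, so the share is no test of it. FGF2, a ligand of FGF receptors, rose 8.17-fold, at 3.03 ± 0.22 (SD, n = 3, limma adjusted p = 0.00078). PDGFRA, a receptor of platelet-derived growth factor, rose by 1.92 ± 0.38 (limma adjusted p = 0.00212). ERBB3, a receptor that pairs with other EGF receptor family members, fell by 1.39 ± 0.34 (limma adjusted p = 0.0034). KIT, the receptor of stem cell factor, fell by 1.15 ± 0.31 (limma adjusted p = 0.00473). Of the EGF-like ligands, BTC fell by 0.97 ± 0.25 (limma adjusted p = 0.00557), and its dimmer probes gave -0.41 and -0.47. EGF had 0.06 ± 0.12 (limma adjusted p = 0.729). AREG, HBEGF and TGFA were not tested, and EREG had no probe.

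Markers checked the labelled cell type and the presence of other cells. Of 9 granulosa and cumulus markers, 8 were above background on all arrays at both times, and FOXL2 was not. Of the 8, 5 fell (62.5%, against 18.0% of all tested genes called lower). The summed intensity of the list was 91567 to 96919 at 0 h and 74101 to 79960 at 6 h. Of 7 theca and stroma markers, 5 were tested and 4 rose (80%, against 17.2% of all tested genes called higher). The sum of the list was 3889 to 4365 at 0 h and 10054 to 11283 at 6 h. Those that rose were LUM, DCN, TCF21 and PDGFRA, which is also in the list of receptors. COL1A1 was tested but not called, at 1.00 ± 0.87 (limma adjusted p = 0.0629). The theca marker CYP17A1 and COL1A2 were not tested. In the granulosa list, INHA was saturated on 2 arrays and INHBA on 4. These genes had the highest levels of that list, weigh most in its sum and were not called. The median log2 ratio of its 8 tested genes was -1.09. Of 7 blood, immune and endothelial markers, 2 were tested and CD68 rose (50%, against 17.2%). The sum was 983 to 1984 at 0 h and 1194 to 2686 at 6 h. PECAM1 was above background on 0 arrays.

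Oocyte markers differed between replicates, with a wider range of replicate medians than any list of the pathway. Of 12, 8 were tested and 0 were called by limma with all 3 replicates, 0 also at an unadjusted p under 0.05. Their median log2 ratio was 1.87, 0.77 and -1.18 in replicates 1, 2 and 3, and their summed intensity spanned 1709 to 12719 at 0 h and 2805 to 5894 at 6 h. Replicate 3, in which the oocyte markers were lower at 6 h, also had the least negative ratios of DUSP1, DUSP6 and SPRY1. It had the highest ratio of SPRY2 and the lowest ratios of SPRED1 and SPRED2. DUSP1, DUSP6, SPRY1 and SPRY2 kept their calls without replicate 3, at -3.81, -2.01, -0.91 and 1.94. The part that these other cell types had in the results on the members was not tested.

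Signal was low on all arrays, with median raw spot intensities of 169.4 to 211.5 in Cy5 and 208.3 to 264.2 in Cy3. The share of probes above background on an array was 51.2% to 84.3% for the 0 h RNA and 41.2% to 79.9% for the 6 h RNA. The ratios of a dye swap's paired arrays had correlations of 0.83, 0.86 and 0.89 across genes, which are not independent replicates.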

How the data were processed

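The authors deposited raw spot intensity and local background for each of 6 arrays, per the file headers, and a matrix of normalized log2 ratios with no normalization method stated. The values of that matrix were log2 of Cy5 over Cy3, with array medians of -0.0186 to 0.00676 and r = 0.98 to 0.99 to the ratios computed here. The series' value table was identical to it. Channels were told apart by the wavelengths in the file headers, and the first array of each replicate held 6 h RNA in Cy3, per the labels.

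Spot means were background corrected (normexp, offset 50, ignored spots left out), normalized by loess within arrays, turned to 6 h over 0 h and averaged over dye swaps. Between 11 and 69 spots per array were marked as ignored. Levels are intensities after loess and Aquantile scaling. A spot was above background above a threshold set per channel at 2 SD over the mean of the 153 negative controls, ignored ones left out. Probes that passed on 6 of 6 arrays for either time point were tested, and the brightest tested probe stood for its gene. Ratios were tested against 0 with limma 3.58.1 (R 4.3.3, lmFit and eBayes, two-sided, Benjamini-Hochberg over 9180 genes). The procedure was tested on simulated data in which a small share of the brighter probes changed. That test did not cover the share of genes called here, or changes as small as those of SPRED1 and SPRED2. Alternatives changed the background correction, normalization, filter, choice of probes, source of the ratios, use of the dye swaps, saturated spots and replicates.

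Gene names came from the platform annotation, in which 21790 probes had 1 symbol. The pairing of time points comes from the arrays, each of which held both times of 1 replicate. The members and the lists were chosen with earlier results of these data known. Named genes were all members, in each list the genes with the smallest p (at most 4), and the 3 genes nearest to DUSP1 and to SPRY2. Some other markers and the EGF-like ligands were named in addition.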

Additional observations from a re-analysis of the deposited data

How the results depend on the processing

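DUSP1, DUSP6, SPRY1 and SPRY2 kept their direction and call under 18 alternatives, of which 1, keeping ignored negative controls in the background threshold, was chosen after seeing the data. Of the members, 3 were called lower under each alternative. Without 1 replicate, the count of members called higher ranged from 1 to 3. With only arrays with 6 h RNA in Cy5 it fell from 3 to 1, while calls over all tested genes fell from 3235 to 2803. In that dye orientation SPRED1 had 0.37 (limma adjusted p = 0.0769) and SPRED2 0.45 (adjusted p = 0.0807). Members called in all ranged from 4 to 6 without 1 replicate. The count of all genes called was 6824 over all 20727 tested probes, because more features were tested, and ranged from 1679 to 3211 without 1 replicate. With a dye term and the replicate block (correlation 0.491), 6 members and 3657 genes were called, and the block ended no member's call.

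Without 1 replicate, called genes ranged from 3 to 8 for the RAS to ERK cascade, from 3 to 6 for the JNK and p38 cascades and from 3 to 7 for the readouts of ERK output, each highest without replicate 1; 4 oocyte markers, and none with all replicates, were called without replicate 3. Among the named genes, signs turned in DUSP4, DUSP12, KPNA7, ZAR1 and PTPRC, none of them called with all replicates. DUSP4, untested and near 0, lay between -0.16 and 0.15 over its alternatives. DUSP12 had -0.013 in the authors' matrix and in the value table, KPNA7 -0.46 with the mean of its tested probes and -0.056 to 1.87 without 1 replicate, ZAR1 -0.040 to 1.55 without 1 replicate, and PTPRC 0.014 with normexp on all spots, 0.0035 with median centring, 0.11 with 6 h RNA in Cy5 only and -0.14 to 0.085 without 1 replicate. Apart from the probe count, the cause was not tested. Slide as a block was not run, since the files name no slides. Signal over background left DUSP2, DUSP4, DUSP5 and SPRY4 untested in the main fit, though DUSP5 passed on 5 of 6 arrays at each time. Without the filter on dim probes, 15216 genes were tested, with 3115 genes called and 6 of the 10 members. The number of arrays limits the precision.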
